A study of Mus musculus with 27 samples.

Results

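The CC chemokines were examined in mouse skeletal muscle before and after cardiotoxin (CTX) injury, a snake venom peptide that lyses myofibers, in WT mice and in mice without Gsdme. The members were the 10 genes named Ccl2, Ccl3, Ccl4, Ccl5, Ccl6, Ccl7, Ccl8, Ccl9, Ccl11 and Ccl24, taken by gene name from both deposited TPM tables. They were 10 of 55852 entries in the table of 24 injured libraries and 10 of 55677 entries in the table of control and WT D1 libraries, and all 10 passed the filter on low values in both tables. TPM (transcripts per 1000000) is a relative abundance per gene length, so that levels of different genes could be set side by side. It carries no read number, and the depth of each library is therefore unknown.

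The injured groups were WT and Gsdme KO muscle after CTX on D1, D4, D7 and D14, and each of these 8 groups held 3 libraries. A further 3 libraries were WT control muscle taken without CTX. Per the study, the mice were male, the WT strain was C57BL/6J, the KO was global, and KO and WT mice could be bred as littermates from heterozygous crosses. Ages were not given in the sources used here. The deposited description calls the replicates biological triplicates. The sample titles say KO where the genotype field says knockdown, and the injected muscle is named thigh in one place and gastrocnemius in another. Control muscle is called unloaded by the deposited text and contralateral by the study. Gsdme (gasdermin E, a pore-forming protein cut by caspase-3) was still detected in libraries labelled KO, at 0.95 to 2.17 TPM against 1.46 to 4.85 TPM in injured WT libraries, without overlap on D1, D4 and D7 and with overlap on D14. The study describes 2 sequencing batches, one with injured and contralateral muscle at 24 h and the other with both genotypes over time, and the labels name no batch. Which of them held the WT D1 libraries is not given, so that batch cannot be told apart from injury in the control comparison or from genotype on D1. The same holds for day in the WT step from D1 to D4. The genotype average over days and the test of genotype by day also include these libraries.

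CC chemokines are small secreted proteins that draw leukocytes along a concentration gradient by binding G protein-coupled CC receptors. Ccl2 and Ccl7 act mainly as monocyte chemoattractants, with Ccr2 as their receptor, and the gene of Ccl8 lies near theirs. Ccl3, Ccl4 and Ccl5 are inflammatory chemokines that draw macrophages and T cells, and Ccl3 and Ccl5 bind Ccr1. Ccl6 and Ccl9 are rodent chemokines that bind Ccr1, and Ccl11 and Ccl24 are eotaxins, which draw eosinophils through Ccr3. In injured muscle, Ccr2-dependent entry of monocytes is known to be needed for clearance of dead fibers and for regeneration.

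On GRCm38 (mm10, the build named in the submitters' processing notes), 9 of the 10 genes lie on chromosome 11. Ccl2 (chr11:82035571-82037453), Ccl7 (chr11:82045712-82047525), Ccl11 (chr11:82057823-82062955) and Ccl8 (chr11:82115185-82116799) are in a plus strand cluster of 81.2 kb that also holds Ccl12. About 1409 kb further, a second cluster of 138.9 kb holds Ccl5 (chr11:83525778-83530518), Ccl9 (chr11:83572919-83578636), Ccl6 (chr11:83587882-83593087), Ccl3 (chr11:83647844-83649355) and Ccl4 (chr11:83662584-83664683), of which Ccl4 is on the plus strand and the others on the minus strand. Ccl24 is on the minus strand of chromosome 5 (chr5:135569937-135573049). All are annotated as protein coding in GENCODE.

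Promoter sequence from RefSeq (GRCm38.p6) was matched for 4 of the 10 members, Ccl3, Ccl6, Ccl8 and Ccl9. The 250 bases before the annotated start are shown for Ccl6 and Ccl9, neighbors whose levels followed each other most closely in the second cluster, and for Ccl8, whose time course differed from that of Ccl2 and Ccl7 in the same cluster. Capitals mark matches, on either strand, to TATAAA, to the AP-1 motif TGANTCA, to the C/EBP motif TTNNGCAA or to the NF-kB consensus.
Ccl8 promoter (chr11:82114935-82115184, plus strand): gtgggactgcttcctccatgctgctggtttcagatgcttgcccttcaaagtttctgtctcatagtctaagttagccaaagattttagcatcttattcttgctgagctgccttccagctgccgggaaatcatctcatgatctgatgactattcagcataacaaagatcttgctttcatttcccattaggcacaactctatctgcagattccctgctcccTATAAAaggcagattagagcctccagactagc
Ccl6 promoter (chr11:83593088-83593337, minus strand): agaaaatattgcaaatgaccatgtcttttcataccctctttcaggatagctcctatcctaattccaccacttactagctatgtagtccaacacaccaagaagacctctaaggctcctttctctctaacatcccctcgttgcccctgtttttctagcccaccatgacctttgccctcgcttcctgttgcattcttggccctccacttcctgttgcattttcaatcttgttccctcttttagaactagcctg
Ccl9 promoter (chr11:83578637-83578886, minus strand): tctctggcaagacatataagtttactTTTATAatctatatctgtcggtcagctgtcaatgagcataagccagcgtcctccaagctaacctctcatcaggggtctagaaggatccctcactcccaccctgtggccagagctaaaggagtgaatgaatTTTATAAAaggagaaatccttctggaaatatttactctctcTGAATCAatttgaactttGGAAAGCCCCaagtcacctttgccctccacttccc
In Ccl8, TATAAA lay 32 to 27 bases before the start. In Ccl9, an AP-1 match lay 53 to 47 bases and an NF-kB match 35 to 26 bases before the start, and TATAAA lay at 92 to 87 and, on the other strand, at 94 to 89 and at 224 to 219 bases, of which the first pair overlap. No match to these motifs was found in the Ccl6 or Ccl3 window. Among 32851 promoter windows of this length, 12.4% held TATAAA, 6.75% the AP-1 motif, 9.56% the C/EBP motif and 7.25% the NF-kB consensus, so that each match is a description of the letters and not of a bound site.

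To ask how CTX changed the family in WT muscle, WT D1 was compared with WT control. Of the 10 ligands, 8 were far higher on D1, led by the monocyte chemoattractants Ccl7 and Ccl2, whereas the eotaxins Ccl11 and Ccl24 stayed near their control level in TPM. By limma on log2(TPM + 1) with Benjamini-Hochberg adjustment over all 13041 genes tested, 8 of 10 members rose and none fell. In this comparison 55.4% of all genes tested were called higher and 5.64% lower at an adjusted p under 0.05, so that a rise was common in these libraries. The members differed from this background in size, with a median log2 difference of 3.42 beside 0.66 over all genes.

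Ccl2 was 2.50, 1.39 and 1.96 TPM in the 3 control libraries and 336, 744 and 106 TPM on D1. Ccl7 was 1.00, 0.90 and 0.30 TPM in control muscle and 241, 626 and 105 TPM on D1. Both rose from a few TPM or less in every control library, without overlap of the groups. This was so for the 8 members that rose, and 64.2% of all genes tested were likewise higher without overlap. The ratio of mean TPM was 203 for Ccl2 and 442 for Ccl7. The log2(TPM + 1) difference was 6.68 for Ccl2 (SE 0.59, limma adjusted p = 0.000615) and 7.21 for Ccl7 (SE 0.55, limma adjusted p = 0.000326). Ccl8 started higher, at 4.97, 4.88 and 2.90 TPM, and was 67.1, 104 and 40.9 TPM on D1. Its log2 difference of 3.70 (SE 0.34, limma adjusted p = 0.000639) was close to those of Ccl6 and Ccl5, and its mean rose 16.7-fold.

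Ccl6 and Ccl9 were the most abundant members of control muscle apart from Ccl11, at 20.9 to 32.0 TPM and at 11.5 to 20.6 TPM. On D1, Ccl6 was 384, 731 and 170 TPM and Ccl9 was 188, 316 and 81.8 TPM. Their log2 differences were 3.71 (SE 0.46, limma adjusted p = 0.00137) and 3.35 (SE 0.44, limma adjusted p = 0.00154), and their mean TPM rose 15.7-fold and 12.1-fold. Ccl5, a product of T cells, NK cells and activated macrophages, went from 1.17 to 1.70 TPM up to 32.5, 46.2 and 12.2 TPM, with a log2 difference of 3.49 (SE 0.42, limma adjusted p = 0.00134). Ccl3, an inflammatory product of macrophages and neutrophils, was listed at 0.20, 0 and 0 TPM in control muscle and was 12.1, 14.4 and 2.27 TPM on D1. Ccl4, its close neighbor on the chromosome, was listed at 0.08, 0 and 0.16 TPM and then was 9.82, 20.6 and 4.59 TPM. Ccl3 and Ccl4 rose by 3.04 (SE 0.53, limma adjusted p = 0.00292) and 3.34 (SE 0.43, limma adjusted p = 0.00148) on the log2 scale, where the added 1 TPM understates the change of genes that start near 0. With any WT D1 library left out, neither reached 1 TPM in 3 libraries, so that 6 members were called.

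Ccl11, a product of stromal cells, was 27.9, 26.8 and 23.99 TPM in control muscle and 23.8, 26.4 and 29.98 TPM on D1. Ccl24 was 7.34, 9.45 and 8.15 TPM and then 9.09, 11.3 and 8.05 TPM. The libraries of the groups overlapped for both eotaxins, and the log2 differences were 0.02 (SE 0.17, limma adjusted p = 0.911) and 0.17 (SE 0.20, limma adjusted p = 0.496). Relative to the median gene, which was 0.66 higher on D1, both were lower: after median-of-ratios scaling Ccl11 was at -0.74 (limma adjusted p = 0.0207) and Ccl24 at -0.55 (limma adjusted p = 0.0303), and after quantile normalization they were at -0.68 (limma adjusted p = 0.0293) and -0.64 (limma adjusted p = 0.0204). Over all alternatives the adjusted p ran from 0.0207 to 0.936 for Ccl11 and from 0.0204 to 0.856 for Ccl24. Under both scalings all 10 members were called, 8 higher and 2 lower, where 5534 and 5226 of all 13041 genes were called in either direction.

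**Figure D1:**
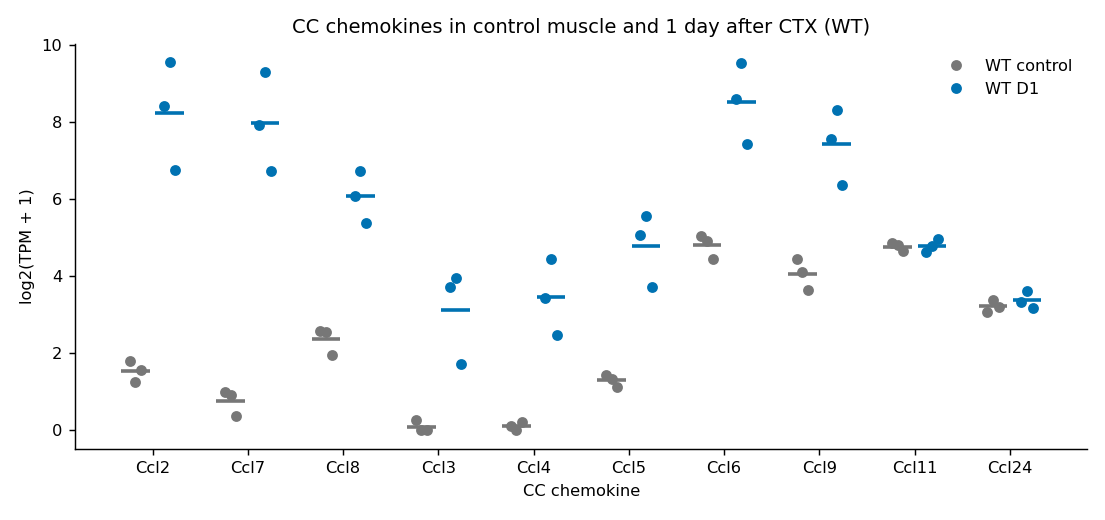
Levels of the 10 CC chemokines, as log2(TPM + 1), in 3 WT control libraries (grey) and 3 WT D1 libraries (blue). Points are libraries and horizontal lines their means. For 8 members the groups do not overlap, whereas for Ccl11 and Ccl24 they do.

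Transcripts of the cells that make and answer these ligands were higher on D1 as well. The summed level of 9 monocyte and macrophage markers was 145 to 184 TPM in control muscle and 782 to 3627 TPM on D1, with 9 of 9 called higher. That of 7 neutrophil markers was 2.07 to 4.89 TPM and 58.9 to 626 TPM, with 6 of the 6 tested called higher. The 9 T and NK cell markers summed to 0.62 to 1.87 TPM and to 8.88 to 34.0 TPM, whereas 6 myofiber markers went from 113253 to 117690 TPM to between 55978 and 115508 TPM. The part of these shifts in the chemokine differences was not tested, and in bulk muscle fewer cells of a type and less RNA per cell cannot be told apart. Of the 5 eosinophil markers, none reached 1 TPM in 3 of these libraries.

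Among WT D1 libraries, replicate 2 was highest and replicate 3 lowest for 9 of the 10 members, whereas for Ccl11 replicate 3 was highest. The monocyte and macrophage markers had the same order, at 2308, 3627 and 782 TPM in replicates 1, 2 and 3, and replicate 3 also held 42.1 TPM of acinar pancreas markers, a tissue foreign to muscle, against 0.45 TPM or less in the others. Its myofiber markers were at 115508 TPM, near control muscle.

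Over time in WT muscle, the family did not decline as a block. Ccl2 and Ccl7 fell first, between D1 and D4, Ccl8 had its highest mean on D4, Ccl5 was held until D7, and Ccl11 had its lowest level on D4 and its highest on D14. From D1 to D4, 4 of 10 members were called, all lower (Ccl2, Ccl7, Ccl9 and Ccl11), where 19.8% of all 15718 genes tested were called and 5.27% were lower. From D4 to D7, 1 member, Ccl11, was called higher, where 12.3% of all genes were called and 3.04% were higher. From D7 to D14, 3 members fell (Ccl5, Ccl8 and Ccl9), where 31.8% of all genes were called and 30.9% were lower.

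Ccl2 was 336, 743 and 106 TPM on D1 and 104, 14.0 and 8.97 TPM on D4 in WT muscle. It was 6.13 to 9.32 TPM on D7 and 0.62 to 1.34 TPM on D14, below the 1.39 to 2.50 TPM of control muscle in the other table. The only D4 library within reach of D1 was replicate 1. The D1 to D4 difference was -3.58 on the log2 scale (SE 0.83, limma adjusted p = 0.00464), and -3.60 for Ccl7 (SE 0.82, limma adjusted p = 0.00431). Ccl7 was 241, 626 and 105 TPM on D1 and 66.6, 12.4 and 8.93 TPM on D4, and it was 0.24 to 1.5 TPM on D14.

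Ccl8 went the other way over the same days. It was 67.0, 104 and 40.9 TPM on D1 and 511, 183 and 92.8 TPM on D4 in WT muscle, with overlap of the days, and the difference of 1.63 (SE 0.82) did not pass the test (limma adjusted p = 0.177). On D7 it was 46.0 to 72.9 TPM and on D14 it was 8.06, 18.3 and 1.31 TPM. The D7 to D14 difference was -2.95 (SE 0.82, limma adjusted p = 0.0159). As a share of the summed TPM of the 10 members in each library, Ccl8 went from a mean of 5.46% on D1 to 39.6% on D4, whereas Ccl2 went from 24.3% to 5.14% and Ccl7 from 20.3% to 3.92%.

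Ccl5 was 12.2 to 46.1 TPM on D1, 20.4 to 63.1 TPM on D4 and 15.3 to 37.3 TPM on D7 in WT muscle, and these days overlapped. On D14 it was 3.74, 4.74 and 1.08 TPM, below every earlier WT library. The share of all genes for which this held was not computed. The D7 to D14 difference was -2.67 (SE 0.68, limma adjusted p = 0.0121). The T and NK cell markers took a like course, at 11.03 to 14.6 TPM on D7 and 1.84 to 3.80 TPM on D14. Without WT D14 replicate 3 the adjusted p of Ccl5 was 0.0781 and that of Ccl8 0.104, and without WT D7 replicate 1 they were 0.0534 and 0.0635, so that no member was called from D7 to D14 in either case.

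Ccl6 and Ccl9 had lower means on each later day. Ccl6 was 384, 730 and 170 TPM on D1 and 240, 126 and 84.4 TPM on D4, and then 62.1 to 70.2 TPM on D7 and 12.9 to 54.98 TPM on D14, where control muscle had 20.9 to 32.0 TPM in the other table. None of its steps in WT muscle passed the test, with limma adjusted p of 0.101, 0.226 and 0.0621 in order of time. Ccl9 was 188, 316 and 82.2 TPM on D1 and 110, 45.4 and 38.5 TPM on D4. It fell by 1.54 (SE 0.53, limma adjusted p = 0.0473) from D1 to D4 and by 1.41 (SE 0.53, limma adjusted p = 0.0496) from D7 to D14, both close to the threshold, and its D4 to D7 difference of -0.88 did not pass (limma adjusted p = 0.245). The first call was lost without WT D1 replicate 1 or 2 or WT D4 replicate 2 or 3, and the second was lost with every WT D7 or D14 library left out in turn except WT D14 replicate 2.

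Ccl3 and Ccl4 were the least abundant members after D4. In WT muscle, Ccl3 was 2.46 to 15.7 TPM on D1, 3.23 to 18.02 TPM on D4 and 1.04 to 4.33 TPM on D7, and it was listed at 0.16, 0.12 and 0 TPM on D14. Ccl4 was 4.64 to 20.8 TPM on D1, 1.92 to 12.7 TPM on D4 and 0.42 to 3.09 TPM on D7, and was listed at 0.01, 0.11 and 0 TPM on D14. No step of either passed the test in WT muscle. For the whole family, 7 of 10 members had adjusted p under 0.05 from D7 to D14 when 0.1 was added to TPM in place of 1, as did 5605 of all genes, among them Ccl3 at -3.71 (limma adjusted p = 0.00991) and Ccl4 at -3.25 (limma adjusted p = 0.0212).

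Ccl11 was 23.7, 26.4 and 30.0 TPM on D1 and 12.2, 15.1 and 17.2 TPM on D4 in WT muscle. These days did not overlap, and the share of all genes without overlap between them was not computed. It was 21.3, 21.2 and 32.1 TPM on D7 and 29.2, 41.3 and 28.9 TPM on D14. It fell by 0.81 (SE 0.19, limma adjusted p = 0.00477) from D1 to D4 and rose by 0.69 (SE 0.19, limma adjusted p = 0.0265) from D4 to D7. The rise was not called without WT D4 replicate 1, WT D7 replicate 2 or WT D7 replicate 3, with adjusted p of 0.143, 0.0619 and 0.145. Ccl24 was 8.33 to 11.3 TPM on D1 and 4.52 to 10.3 TPM on the later days in WT muscle, and none of its steps passed the test. By D14, Ccl11 held 38.9% of the summed TPM of the members in WT muscle and 33.7% in KO muscle, beside 30.6% in control muscle.

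In KO muscle most of the ligands fell from D1 to D4, and no later step passed the test. From D1 to D4, 7 of 10 members were called lower and none higher, where 19.4% of all genes were called and 12.2% were lower. Ccl2 was 627, 325 and 567 TPM on D1 and 22.5, 1.35 and 9.13 TPM on D4, a difference of -5.89 (SE 0.83, limma adjusted p = 0.000219). Ccl7 was 430, 237 and 357 TPM and then 20.6, 0.70 and 5.27 TPM, a difference of -5.76 (SE 0.82, limma adjusted p = 0.000237). Both were far apart without overlap between the days, and the share of all genes without overlap in this step was not computed.

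The other 5 calls in KO muscle from D1 to D4 were Ccl3 and Ccl4, Ccl6 and Ccl9, and Ccl24. Ccl6 fell by 2.51 (SE 0.59, limma adjusted p = 0.00727) and Ccl9 fell by 2.64 (SE 0.53, limma adjusted p = 0.00283). Ccl3 fell by 2.66 (SE 0.66, limma adjusted p = 0.0108), Ccl4 fell by 2.64 (SE 0.62, limma adjusted p = 0.00734), and Ccl24 fell by 1.03 (SE 0.28, limma adjusted p = 0.0171). Ccl3 was not called without KO D1 replicate 3 or KO D4 replicate 2, Ccl4 not without KO D1 replicate 3, and Ccl24 not without KO D1 replicate 1 or KO D4 replicate 2 or 3. Ccl8, Ccl5 and Ccl11 had differences of 0.80, 0.22 and 0.11, with adjusted p of 0.50, 0.844 and 0.705.

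From D4 to D7 in KO muscle, no member and 0.0% of all genes were called by limma, and no member but 1555 genes had an unadjusted p under 0.05. Without WT D1 replicate 3, WT D4 replicate 1 and KO D4 replicate 2 together, 4 members were called lower in this step, namely Ccl2, Ccl3, Ccl6 and Ccl9, and 3119 genes were called in all. From D7 to D14, no member and 0.56% of all genes were called by limma. Ccl5, Ccl8 and Ccl11 had an unadjusted p under 0.05 there, with log2 differences of -1.54, -2.23 and 0.72 (limma adjusted p = 0.234, 0.167 and 0.0854), where 19.3% of all genes had such a p. With library quality weights 7 members were called, and so were 7861 of all 15718 genes. Whether the steps of KO muscle differ from those of WT muscle was asked with the genotype by day F test.

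**Figure D2:**
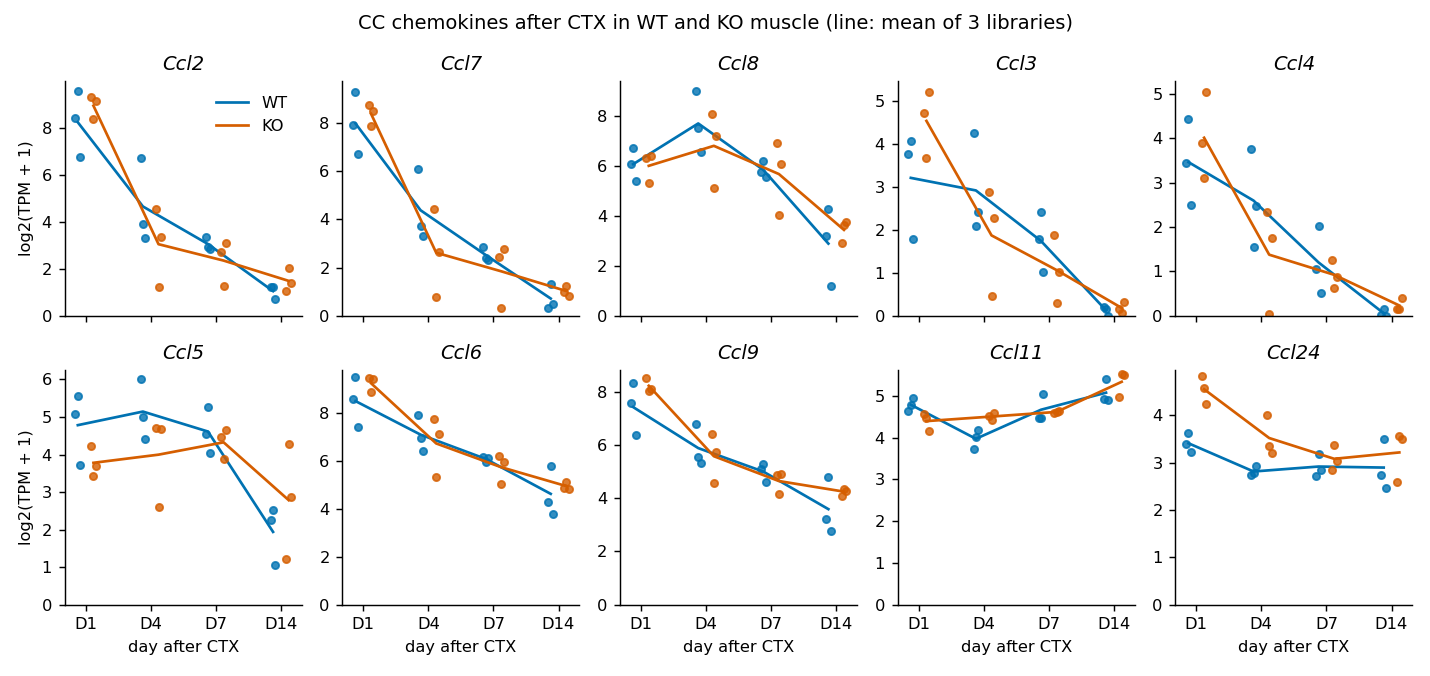
Each panel shows 1 CC chemokine, as log2(TPM + 1) with its own axis from 0, against day after CTX in WT (blue) and KO (orange) muscle. Points are libraries, 3 per genotype and day, and lines join their means; Ccl2 and Ccl7 drop from D1 to D4, Ccl8 has its highest mean on D4, and the Ccl24 points of KO lie above those of WT on D1 and D4.

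Ordered by mean TPM over the 8 injured groups, neighboring groups mostly overlapped. Of the 7 neighboring pairs of each member, 1 pair at most was without overlap. For Ccl2 and Ccl7 this was the drop from the D1 groups to WT D4, and for Ccl24 it was the drop from KO D1, at a mean of 22.8 TPM, to KO D4, at 10.9 TPM. For Ccl8 it lay between WT D7 and KO D14, for Ccl4 between KO D7 and KO D14, and for Ccl11 between KO D7 and KO D4. For Ccl3, Ccl5, Ccl6 and Ccl9, all 7 neighboring pairs overlapped. How often such a pair occurs among all genes was not computed, so that these counts only describe the members.

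The summed TPM of the 10 members was 86.4 ± 13.9 (SD, n = 3) in control muscle and 1502 ± 1053 in WT D1 muscle. The WT sums of D4, D7 and D14 were 623 ± 457, 229 ± 27.2 and 96.7 ± 55.1. The KO sums, from D1 to D14, were 1929 ± 468, 410 ± 275, 208 ± 87.9 and 119 ± 27.2. The 3 libraries of each genotype overlapped on every day. The makeup of the sum shifted with time: Ccl6 held from 26.0% to 32.2% of it in every group. Ccl2 and Ccl7 had their largest shares on D1, Ccl8 on D4 and Ccl11 on D14. On D1 the largest single share was that of Ccl6, at 29.1% in WT and 32.2% in KO muscle.

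**Figure D3:**
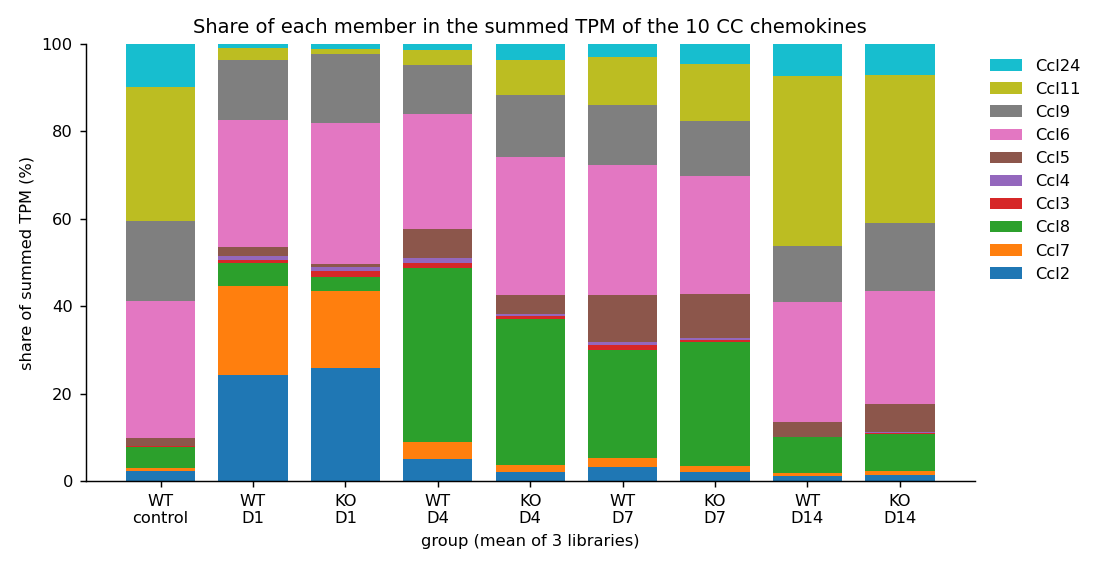
Stacked bars give the mean share of each member in the summed TPM of the 10 CC chemokines, in percent, for WT control and the 8 injured groups (3 libraries each). Ccl6 keeps a share of 26.0% to 32.2%, Ccl8 reaches 39.6% in WT D4 muscle, and Ccl11 is largest in WT D14 muscle at 38.9%.

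To ask whether loss of Gsdme changed the family, KO was compared with WT on each day. No member was called by limma on any day, averaged over days, or in the F test of a genotype effect that differs between days. The background was also near 0: 0.00636% of all genes (1 gene) were called on D1 and averaged over days, and 0.0% on D4, D7 and D14 and in the F test. At an unadjusted p under 0.05 the members were 1 on D1 (Ccl24), 3 on D4 (Ccl7, Ccl11 and Ccl24), 0 on D7 and D14, and 1 averaged over days (Ccl24). Of all genes, 5.38%, 22.7%, 3.06% and 2.06% had such a p on D1, D4, D7 and D14, and 3.54% had one averaged over days. The standard errors of a daily difference were 0.83 for Ccl2 and 0.82 for Ccl7 and Ccl8, beside 0.28 for Ccl24 and 0.19 for Ccl11. The differences of Ccl2, Ccl7 and Ccl8 were therefore known less precisely than those of the eotaxins. Gsdme itself, the targeted gene, was not called in any of these comparisons, although its libraries were apart on all days but D14. Averaged over days, its difference was -0.55 (SE 0.095, limma adjusted p = 0.0664). Its lowest daily adjusted p by limma was 0.212, for a D4 difference of -0.70. A lack of calls therefore cannot show that the members were alike between genotypes.

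Averaged over days, Ccl24 was the member with the largest difference between genotypes relative to its SE, whereas on D1 Ccl3 and on D4 several members had larger differences. On D1 it was 27.7, 22.8 and 18.04 TPM in KO and 9.53, 11.3 and 8.33 TPM in WT muscle. On D4 it was 15.1, 9.22 and 8.23 TPM in KO and 5.67, 5.89 and 6.61 TPM in WT muscle. Every KO library was above every WT library on both days, with a ratio of means of 2.35 and 1.79. On D7 and D14 the genotypes overlapped, at 6.22 to 9.32 TPM against 5.62 to 8.11 TPM and at 5.04 to 10.9 TPM against 4.52 to 10.3 TPM.

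The KO minus WT difference of Ccl24 was 1.14 on D1 (SE 0.28, limma adjusted p = 0.628), 0.71 on D4 (SE 0.28, limma adjusted p = 0.212), 0.16 on D7 and 0.32 on D14. With 3 against 3 libraries the exact two-sided permutation p was 0.1 on D1 and on D4, the smallest this design allows. Averaged over days the difference was 0.58 (SE 0.14) with a limma adjusted p of 0.534. An exact two-sided permutation of genotype within days gave p = 0.00261 over 160000 assignments, unadjusted, for 1 of 10 members looked at. The next lowest such p among the members was 0.318, for Ccl5. The average kept its sign under every alternative and with any 1 library left out. Non-overlap was also seen for many other genes: 3.33% of all genes were higher and 3.38% lower in KO without overlap on D1, and 2.77% and 11.2% on D4. The 5 eosinophil markers summed to 5.27, 1.49 and 23.7 TPM in KO D1 and to 3.49, 4.49 and 0.68 TPM in WT D1 libraries, and the 5 resident macrophage markers to 99.5 to 160 TPM and to 87.0 to 169 TPM. Both lists overlapped between genotypes, and their part in the Ccl24 levels was not tested.

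Ccl11 was the other member without overlap on D1 and D4, in opposite directions. On D1 it was 22.5, 21.1 and 16.9 TPM in KO and 23.7, 26.4 and 30.0 TPM in WT muscle, a difference of -0.39 (SE 0.19, limma adjusted p = 0.873). On D4 it was 21.8, 20.3 and 23.0 TPM in KO and 12.2, 15.1 and 17.2 TPM in WT muscle, a difference of 0.53 (SE 0.19, limma adjusted p = 0.212). It overlapped on D7 and D14. In KO muscle the level on D4 was therefore near that on D1, whereas in WT muscle it was lower. In the limma F test over days, Ccl11 was the only member with an unadjusted p under 0.05, and its adjusted p was 0.527. Of all genes, 7.65% had such an unadjusted p, so that 1 of 10 members is near the background.

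The other 8 members overlapped between genotypes on every day, as did all 10 on D7 and D14, where 16.5% and 8.42% of all genes did not overlap. On D1, Ccl3 was 25.4, 11.8 and 35.8 TPM in KO and 12.7, 15.7 and 2.46 TPM in WT muscle, a difference of 1.33 (SE 0.66, limma adjusted p = 0.873). Ccl5 was 17.7, 9.78 and 11.9 TPM in KO and 32.5, 46.1 and 12.2 TPM in WT muscle, where 1 KO library passed the lowest WT library, a difference of -1.003 (SE 0.68, limma adjusted p = 0.873). The T and NK cell markers summed to 5.4 to 10 TPM in KO D1 and 8.86 to 34.0 TPM in WT D1 libraries, and neutrophil markers summed to 588, 296 and 3474 TPM in KO D1 and to 280, 621 and 58.5 TPM in WT D1 libraries. Their part in the levels of Ccl5 and Ccl3 was not tested.

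On D4 the 8 members other than the eotaxins had KO means below WT means, where the median log2 difference over all genes was -0.28. The largest differences were those of Ccl7 at -1.76 (SE 0.82, limma adjusted p = 0.216), Ccl2 at -1.60 (SE 0.83, limma adjusted p = 0.233) and Ccl4 at -1.22 (SE 0.62, limma adjusted p = 0.228). A pair of libraries lay at the ends of these groups: KO D4 replicate 2 was lowest for 9 of 10 members in its group and WT D4 replicate 1 highest for 8 of 10 in its group. In KO D4 replicate 2 the monocyte and macrophage markers summed to 405 TPM, against 3287 and 2764 TPM in the other KO D4 libraries, and acinar pancreas markers to 69.8 TPM. Without WT D1 replicate 3, WT D4 replicate 1 and KO D4 replicate 2 together, the D4 differences changed sign for Ccl2 (0.33), Ccl3 (0.32), Ccl4 (0.04), Ccl6 (0.74), Ccl7 (0.01), Ccl8 (0.60) and Ccl9 (0.65), whereas those of Ccl11 (0.45), Ccl24 (0.75) and Ccl5 (-0.022) did not. For those that changed sign, removal of the highest WT and the lowest KO library raised the difference by construction. The changes therefore decide nothing about genotype. With 1 library left out at a time, only Ccl6 and Ccl9 changed sign on D4. On D7, 9 of 10 differences were negative, where the median over all genes was -0.19. On D14 all 10 were positive, from 0.05 for Ccl3 to 0.85 for Ccl5 (SE 0.68), each less than 2 SE. The median over all genes was 0.081 on that day. The median over the members was -0.32 on D7 and 0.32 on D14. The signs went the way of the median gene for 9 of 10 members on D7 and for all 10 on D14. The share of all genes with each sign was not computed.

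**Figure D4:**
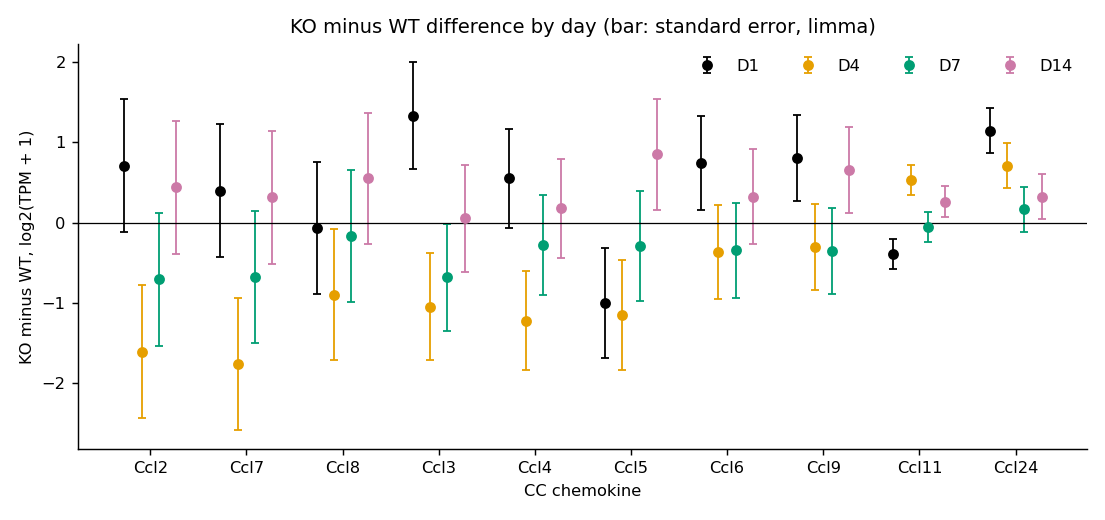
KO minus WT differences of the 10 CC chemokines on the log2(TPM + 1) scale on D1, D4, D7 and D14. Points are limma estimates from 3 libraries per genotype and bars are 1 standard error; Ccl24 is the member farthest above 0 relative to its bar on D1, at 1.14, and none was called.

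**Figure D5:**
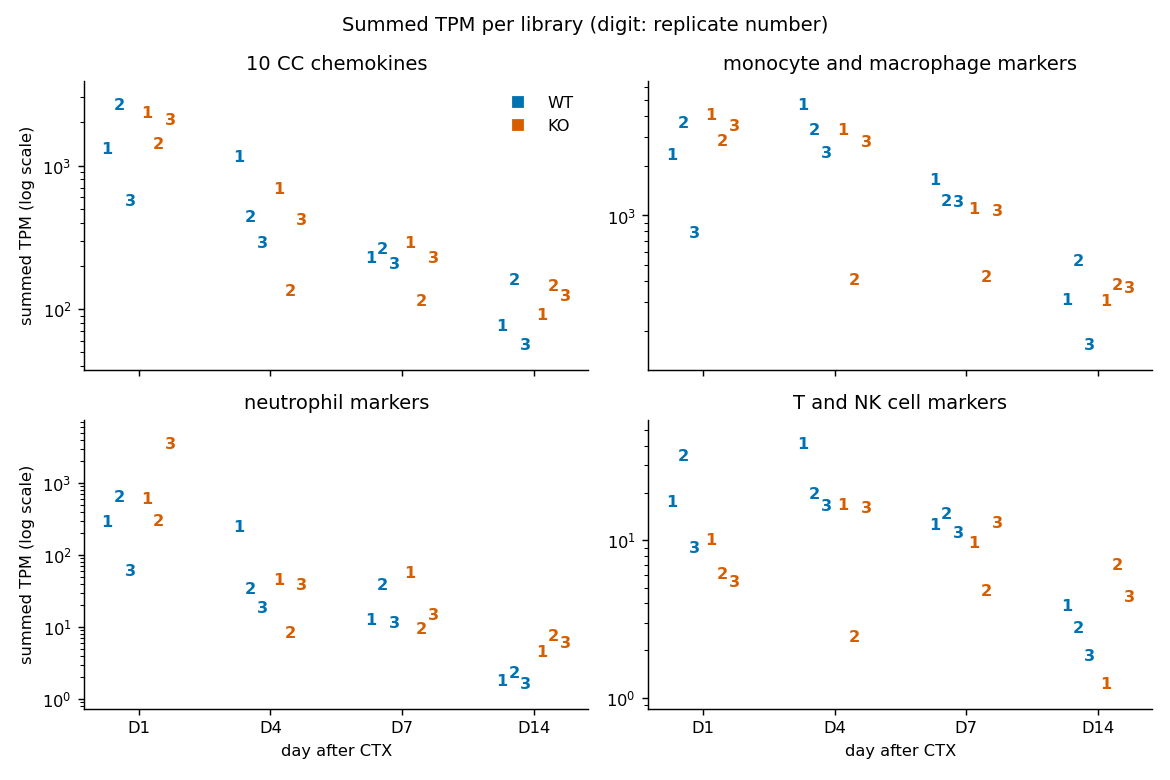
Summed TPM per injured library, on log axes, of the 10 CC chemokines and of markers of monocytes and macrophages, neutrophils, and T and NK cells, by day after CTX. Digits are replicate numbers, blue for WT and orange for KO; WT D1 replicate 3 and KO D4 replicate 2 are the lowest of their groups in all 4 panels.

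Of the receptors that answer these ligands, Ccr1, Ccr2, Ccr3 and Ccr8 were followed. In the control comparison, Ccr2 rose by 4.03 (SE 0.57, limma adjusted p = 0.00181) and Ccr1 rose by 4.05 (SE 0.58, limma adjusted p = 0.0019). Ccr2 was 0.43, 0.80 and 0.52 TPM in control muscle and 26.7, 62.3 and 8.79 TPM in WT D1 muscle, with replicate 3 again the lowest. In KO muscle from D1 to D4, Ccr1 fell by 3.91 (SE 0.59, limma adjusted p = 0.00036) and Ccr2 fell by 2.41 (SE 0.69, limma adjusted p = 0.0209). In WT muscle over the same days their differences were -1.48 (limma adjusted p = 0.087) and -0.52 (limma adjusted p = 0.643), and the limma F test of genotype by day passed for neither (adjusted p = 0.527 and 0.538). Ccr3, the eotaxin receptor, was 0.04 to 1.83 TPM in the injured libraries and Ccr8 was 0.15 TPM at most in any library. Ccr3 and Ccr8 were too low to test in the control comparison, as was Ccr8 between genotypes, and Ccr1, Ccr2 and Ccr3 were not called between genotypes on any day.

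Of 13 other CC ligands, 6 could be tested in the control comparison, and 2 rose and 1 fell. Ccl12, a monocyte chemoattractant of mice whose gene lies between Ccl11 and Ccl8, rose by 5.47 (SE 0.49, limma adjusted p = 0.000639) and fell by 2.84 (SE 0.81, limma adjusted p = 0.0218) from D1 to D4 in KO muscle, beside a difference of -1.65 in WT muscle (limma adjusted p = 0.168). Ccl19, a Ccr7 ligand, rose by 0.91 (SE 0.25, limma adjusted p = 0.0143) in WT D1 muscle, and Ccl21a, another Ccr7 ligand, fell by 0.64 (SE 0.20, limma adjusted p = 0.0234), a gene with near-identical copies between which reads may have been split. Ccl27a, a skin chemokine, had rises from D1 to D4 of 1.46 (SE 0.24, limma adjusted p = 0.000434) in WT and 1.70 (SE 0.24, limma adjusted p = 0.000224) in KO muscle. Of 9 other CC receptors, 3 could be tested in the control comparison, and Ackr2, a scavenger of inflammatory CC chemokines, fell by 0.58 (SE 0.22, limma adjusted p = 0.0489). From D1 to D4 in KO muscle, Ccl21a and Ccl21b rose by 2.52 and 1.88 (limma adjusted p = 0.0304 and 0.0269). Ackr2 and Ackr4 rose by 1.20 and 0.70 over the same days (limma adjusted p = 0.00843 and 0.0268). In WT muscle none of these rises was called. The limma F test of genotype by day passed for none of these genes, nor for Ccl12. Its adjusted p was 0.527 for Ccl21a, Ccl21b and Ackr2, 0.789 for Ackr4 and 0.699 for Ccl12. From D7 to D14 in WT muscle, Ccr7 and Ccl22 had differences of -1.39 and -1.22 (limma adjusted p = 0.0216 and 0.0102). None of these genes was called between genotypes.

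Across the 24 injured libraries the profiles of the members were compared by Pearson's r on log2(TPM + 1), over libraries that share days and genotypes. Ccl2, Ccl7, Ccl3, Ccl4, Ccl6 and Ccl9 were all alike, with r of 0.916 to 0.995 between them. Among all genes tested, the profile most like that of Ccl2 was Ccl7 (r = 0.995), and the profile most like that of Ccl6 was Ccl9 (r = 0.989). Ccl2 and Ccl8, of the same cluster, had r of 0.55. Ccl3 was most like Dok3 (r = 0.984), an adaptor protein of hematopoietic cells, and Ccl4 was most like B430306N03Rik (r = 0.975), Cd300lf (r = 0.974) and Ccl3 (r = 0.973). Ccl8 was most like Cfb (r = 0.965), complement factor B. Ccl5 was most like Nkg7 (r = 0.930), a granule gene of cytotoxic lymphocytes, followed by Il2rb (r = 0.927) and Klrk1 (r = 0.912). The eotaxins had looser company, with Mlf1 (r = 0.867) for Ccl11 and Gpat3 (r = 0.772) for Ccl24.

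Over all libraries, 11785 to 14704 genes had at least 1 TPM and the 50 most abundant genes held 25.4% to 61.4% of the TPM. The 3 libraries of WT D1 are present in each table, and the members' values there differed by at most 7.85% (Ccl3) between tables. Tests were made within a table, and levels set across tables are descriptions.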

How the data were processed

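RNA-seq of 27 mouse muscle libraries was read from 2 deposited tables. Per the labels, total RNA with a stated integrity number limit was made into libraries with a SMARTER kit and sequenced as paired ends on an Illumina platform. The authors deposited TPM values per gene and library, which are scaled to a sum of 1000000 in each library. The submitters' processing notes name mm10, and the aligner, the counting tool and any filter are not given in the sources used here. The tables' columns of group means were checked against the libraries (largest difference 3.33e-05) and were not used. No column of another sample was present (0 columns). TPM is a share, so that a gain in abundant genes lowers all others, and reads of paralogs may have been split between copies.

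The sample titles gave group and replicate number. Values were analysed as log2(TPM + 1), and tests were made on genes that reached a TPM of 1 in 3 or more libraries (15718 in the injured and 13041 in the control table) with limma 3.58.1 (R 4.3.3), group means, contrasts, empirical Bayes with a variance trend and Benjamini-Hochberg adjustment over all genes of a comparison. Comparisons were WT D1 with WT control, KO with WT on each day and averaged, an F test of genotype by day, and neighboring days within a genotype. The same tests were run on simulated data first. Single values were also tested by exact two-sided permutation, where 3 against 3 gives 10 splits. Replicate pairs correlated at r of 0.913 to 0.987 over 30 pairs, with at most 0.361% identical values, and all libraries were kept. Alternatives were another pseudocount (0.1), no filter or TPM of at least 5, median-of-ratios and quantile scaling, library weights, a replicate block, only the 6 libraries compared, each library left out, and 3 libraries left out together.

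The members, gene lists and left-out libraries were chosen with earlier results of these data known. The genes named were all 10 members, Gsdme, the receptors Ccr1, Ccr2, Ccr3 and Ccr8 (a further listed gene is not reported here), up to 3 called genes with the largest difference from each list of other CC ligands and receptors in a comparison, and the 3 genes most like each member. Gene positions are from GENCODE and promoters from RefSeq, both on GRCm38.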

Additional observations from a re-analysis of the deposited data

Results flagged for a closer look

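The KO minus WT difference of Ccl11 had opposite signs on D1 and D4, with every library of one genotype on one side of the other on both days. It was -0.39 on D1 and 0.53 on D4 on the log2(TPM + 1) scale. In the limma F test over all 4 days its adjusted p was 0.527, where 7.65% of all genes had an unadjusted p under 0.05 as it did, so that the difference between days did not pass. WT D4 muscle had the lowest mean Ccl11 level of the 8 injured groups, at 12.2 to 17.2 TPM, with overlap with KO D1 muscle at 16.9 to 22.5 TPM, and the summed level of 6 markers of fibro-adipogenic progenitors, stromal cells of muscle, was 993 to 1080 TPM there and 726 to 1333 TPM in KO D4 muscle. The part of these cells in the Ccl11 levels was not tested.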

How the results depend on the processing

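Each result was recomputed with 1 processing choice changed at a time. The count of members called in WT D1 minus control was 6 to 10 over all alternatives, and no member was called in any KO minus WT comparison, its average or the F test under any of them. Of 1123 values of single members under settings other than leaving out 1 library, 1016 kept direction and side of the threshold, 17 lost a call, 46 gained one and 44 changed sign. With 1 library left out, 1060 of 1134 kept both, 22 lost a call, 3 gained one and 49 changed sign. For those that moved, the cause was not tested.

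The count of members called from D7 to D14 in WT muscle was 3 beside 5000 genes called in all, and it was 9 beside 9503 with library quality weights, 7 beside 7670 with only the 6 libraries of both groups, 7 beside 5605 with 0.1 added to TPM, 8 beside 7684 without WT D1 replicate 3, WT D4 replicate 1 and KO D4 replicate 2, and 0 to 4 with 1 library left out. From D4 to D7 in WT muscle it was 1 beside 1941, and it was 5 beside 10595 with weights, 0 beside 1941 with only the 6 libraries, 0 beside 1817 without the 3 libraries named, and 0 to 1 with 1 left out. From D1 to D4 in WT muscle it was 4 beside 3120, and 1 beside 1294 with only the 6 libraries (Ccl7), with 3 to 5 when 1 was left out. From D1 to D4 in KO muscle it was 7 beside 3049, and 3 beside 302 with only the 6 libraries (Ccl2, Ccl7 and Ccl9), with 5 to 7 when 1 was left out. From D4 to D7 in KO muscle it was 0 beside 0, and 4 beside 3119 without the 3 libraries named, with 0 in each fit that left out 1. From D7 to D14 in KO muscle it was 0 beside 88, and it was 7 beside 7861 with weights, 1 beside 432 with median-of-ratios scaling, 2 beside 2118 without the 3 libraries named, and 0 in each fit that left out 1.

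Members whose log2 difference changed sign are given with their value. With library quality weights, whose estimation stopped before convergence, the sign changed in KO D4 minus KO D1 for Ccl11 (-0.027), in KO minus WT averaged over days for Ccl2 (0.39), Ccl3 (0.34), Ccl4 (0.11), Ccl7 (0.33) and Ccl8 (0.24), in KO minus WT on D1 for Ccl8 (0.17), in KO minus WT on D4 for Ccl2 (0.19), Ccl3 (0.45), Ccl4 (0.47), Ccl6 (0.44), Ccl7 (0.19), Ccl8 (0.16) and Ccl9 (0.64), in KO minus WT on D7 for Ccl11 (0.017), Ccl24 (-0.030), Ccl7 (0.19) and Ccl8 (0.13), and in WT D1 minus control for Ccl11 (-0.12). With median-of-ratios scaling it changed in KO minus WT on D4 for Ccl9 (0.038), in KO minus WT on D7 for Ccl11 (0.17) and Ccl8 (0.058), in WT D14 minus WT D7 for Ccl24 (0.49), and in WT D1 minus control for Ccl11 (-0.74) and Ccl24 (-0.55). With quantile normalization it changed in KO minus WT on D7 for Ccl11 (0.11), in WT D14 minus WT D7 for Ccl24 (0.60), and in WT D1 minus control for Ccl11 (-0.68) and Ccl24 (-0.64). Over the fits without 1 library, or without the 3 libraries named, the sign changed in at least 1 fit for the following members. In KO D14 minus KO D7 the range was -0.040 to 0.45 for Ccl24. For KO D4 minus KO D1 the range was -0.0062 to 0.19 for Ccl11 and -0.13 to 0.91 for Ccl5. In KO D7 minus KO D4 the range was -1.60 to 0.059 for Ccl2, -1.13 to 0.032 for Ccl4, -0.37 to 0.68 for Ccl5 and -1.70 to 0.14 for Ccl7. For KO minus WT averaged over days the range was -0.48 to 0.0079 for Ccl2, -0.26 to 0.090 for Ccl3, -0.32 to 0.0012 for Ccl4, -0.048 to 0.26 for Ccl6 and -0.36 to 0.14 for Ccl8. In KO minus WT on D1 the range was -0.036 to 1.36 for Ccl2, -0.23 to 1.05 for Ccl7 and -0.40 to 0.28 for Ccl8. For KO minus WT on D14 the range was -0.016 to 0.12 for Ccl3, -0.10 to 0.91 for Ccl6 and -0.29 to 1.24 for Ccl8. In KO minus WT on D4 the range was -2.36 to 0.33 for Ccl2, -1.55 to 0.32 for Ccl3, -1.75 to 0.042 for Ccl4, -0.87 to 0.74 for Ccl6, -2.67 to 0.013 for Ccl7, -1.53 to 0.60 for Ccl8 and -0.73 to 0.65 for Ccl9. For KO minus WT on D7 the range was -0.15 to 0.14 for Ccl11, -0.63 to 0.14 for Ccl4, -0.58 to 0.037 for Ccl5, -1.14 to 0.081 for Ccl7 and -0.79 to 0.65 for Ccl8. In WT D14 minus WT D7 the range was -0.32 to 0.20 for Ccl24. For WT D4 minus WT D1 the range was -1.67 to 0.13 for Ccl3 and -0.60 to 0.75 for Ccl5. In WT D7 minus WT D4 the range was -0.028 to 0.20 for Ccl24. For WT D1 minus control the range was -0.061 to 0.10 for Ccl11.

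Over all genes tested, the number called in KO minus WT was 1 on D1 and 0 to 14 over the settings, 0 on D4 and up to 24, 0 on D7 and up to 533 with weights, and 0 on D14 and up to 51. For WT D1 minus control it was 7965 and 5226 to 10845, from D7 to D14 in WT muscle 5000 and 286 to 9503, and in KO muscle 88 and 9 to 7861. From D1 to D4 it was 3120 and 1294 to 3915 in WT muscle and 3049 and 302 to 4204 in KO muscle, and from D4 to D7 it was 1941 and 212 to 10595 in WT muscle and 0 and up to 3119 in KO muscle. Averaged over days, KO minus WT had 1 and up to 11, and the F test 0 and up to 19.

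Replicate numbers are shared between groups. Same-numbered libraries of the injured table had deviations from their group means that correlated at a median r of 0.0057 (24 of 84 pairs over 0.1), beside 0.0018 for different numbers (39 of 168 over 0.1). Among WT control and WT D1 libraries 0 of 3 pairs were over 0.1, and the numbers were not taken as pairs. So few pairs, with numbers that may not name the mouse, cannot exclude that control and WT D1 libraries shared mice. The study calls control muscle contralateral, and the comparison was made unpaired. With the replicate number as a block, the count of members called was 8 in WT D1 minus control, 4, 1 and 3 in the WT steps, 7, 0 and 0 in the KO steps and 0 in each KO minus WT comparison, as without it, and the all-gene count in WT D1 minus control was 6952. Depth is not known from TPM.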
